A study of Mus musculus with 8 samples.

Results

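Mucins are large glycoproteins that cover the gut lining, and 7 of their genes (Muc1, Muc2, Muc3, Muc4, Muc6, Muc13 and Muc20) were followed here by gene symbol in the jejunum of 2 mouse strains. Of the 56941 gene rows in the count table, 5 were matched to these symbols: Muc2, Muc3, Muc13, Muc1 and Muc20. The identifiers that GENCODE M21 gives to Muc4 and Muc6 matched no row, so both were not analysed here. The groups were naive C57BL/6 (B6) and naive C3H/HeJ (C3H) mice, 4 bulk RNA-seq libraries each (B6 2, 3, 4 and 5, and C3H 1, 3, 4 and 5), with no challenge in either group and all in batch 1. Per the labels the mice were 6 to 8 weeks old and the strains shared cages for at least 8 weeks; the labels leave unclear if the age is that at the beginning of cohousing. Total counts ran from 37205896 to 58251332 per library. Separate animals are not named in the labels, so every p-value here reflects library-to-library spread, which may be technical.

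Secreted gel-forming mucins are stored in goblet cells and released into the lumen, where they build the mucus layer; Muc2 is the main one of the intestine. Membrane-bound mucins stay anchored in the apical membrane of epithelial cells and form the glycocalyx over the brush border. Muc3 and Muc13 are the membrane mucins best known from enterocytes, whereas Muc1, Muc4 and Muc20 are better known from other epithelia. Muc6 is a gel-forming mucin of gastric and duodenal glands.

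The promoters of the 3 abundant members are shown because Muc3, the gene with the largest strain difference, has a start site in RefSeq that differs from the one in GENCODE M21. Each line holds the 250 bases before the RefSeq start (build GRCm38.p6), 5′ to 3′ on the gene's strand. Capitals mark matches, on either strand, to GATAA (the core bound by zinc finger factors of the Gata4 family), CAAAGGTC (a core of HNF4-type direct repeats), GTTAAT (an HNF1 core), TTTATG (a CDX2 core) or TATAAA (the core promoter box of that name). The motifs were chosen after the sequences had been read. The windows are chr7:141690090-141690339 on the plus strand for Muc2, chr5:137166047-137166296 on the minus strand for Muc3 and chr16:33793787-33794036 on the plus strand for Muc13. RefSeq has 2 windows for Muc13, and the upstream one is printed.
Muc2: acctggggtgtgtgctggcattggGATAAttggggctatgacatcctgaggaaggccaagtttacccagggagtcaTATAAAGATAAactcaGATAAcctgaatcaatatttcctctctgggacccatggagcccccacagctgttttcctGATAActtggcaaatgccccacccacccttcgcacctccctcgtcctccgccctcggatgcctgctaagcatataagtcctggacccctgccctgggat
Muc3: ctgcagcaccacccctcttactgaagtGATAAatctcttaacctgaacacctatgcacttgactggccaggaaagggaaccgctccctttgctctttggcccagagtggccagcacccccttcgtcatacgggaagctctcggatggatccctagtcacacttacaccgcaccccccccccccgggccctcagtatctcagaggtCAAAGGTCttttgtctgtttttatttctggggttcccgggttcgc
Muc13: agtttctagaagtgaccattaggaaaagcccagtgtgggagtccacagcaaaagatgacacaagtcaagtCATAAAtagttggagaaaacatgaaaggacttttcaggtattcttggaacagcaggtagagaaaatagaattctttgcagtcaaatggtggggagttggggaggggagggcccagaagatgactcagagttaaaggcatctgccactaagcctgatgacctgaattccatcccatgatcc

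The Muc2 window held 4 matches to GATAA, a motif present in 22.6% of all 32851 windows of this length, and 1 match to TATAAA (12.4% of windows), which adjoins a GATAA without overlapping it. In the Muc3 window there was 1 GATAA, and 1 CAAAGGTC that begins 45 bases before the start; 1.01% of windows hold that motif. The Muc13 window held 1 TTTATG on the other strand (10.8% of windows). None of the 3 windows held GTTAAT (6.43% of windows). A match is a description of the letters only. The GENCODE M21 model of Muc3 spans 14.4 kb, against 31.1 kb for Muc3 in RefSeq, and the RefSeq start lies in the region where M21 places a separate non-coding gene, Gm3054. The annotation used for counting is not given in the sources used here, so how much of the longer Muc3 model was counted is unknown.

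Muc3 (ENSMUSG00000037390), which encodes a membrane mucin of the enterocyte brush border, was lower in every C3H library than in any B6 library. Its level in CPM (counts scaled to a common library size with TMM, edgeR's trimmed-mean factors) was 4928.5 in B6 2, 2926.5 in B6 3, 7553 in B6 4 and 3595 in B6 5. In C3H it was 943 in C3H 1, 1007 in C3H 3, 977 in C3H 4 and 1212 in C3H 5. The B6 libraries spread widely, with B6 4 highest and B6 3 lowest, while the C3H libraries lay close together: the coefficient of variation was 43% in B6 and 11.7% in C3H.

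The mean fell 4.59-fold, from 4751 ± 2045 CPM in B6 to 1035 ± 121 in C3H (SD, n = 4 each), a log2 fold change of -2.20 (standard error 0.27; edgeR quasi-likelihood test, adjusted p = 0.000157 over 18025 genes tested). In B6 Muc3 ranked 18th of the tested genes by CPM, and in C3H 101st. The fall was there without B6 4, the highest library, at a log2 fold change of -1.89 (adjusted p = 6.56e-05). In bulk tissue, fewer cells of a type and less RNA per cell cannot be told apart. Reads were aligned to a B6-derived genome, so C3H reads lost to sequence differences and a lower transcript level cannot be told apart either.

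Muc13 (ENSMUSG00000022824), a smaller membrane mucin of the intestinal surface, was also lower in C3H, by a much smaller factor. Its level was 2785 CPM in B6 2, 3115 in B6 3, 2494 in B6 4 and 2970 in B6 5, against 1803, 1832, 2257 and 2397 CPM in C3H 1, 3, 4 and 5. The lowest B6 library, B6 4, was just above the highest C3H library, C3H 5, so the strains did not overlap. B6 4 had the highest Muc3 of the B6 libraries and the lowest Muc13. The mean fell 1.37-fold, from 2841 ± 268 to 2072 ± 300 CPM (SD, n = 4 each), a log2 fold change of -0.46 with a standard error of 0.14 (edgeR adjusted p = 0.0453). This call lies at the threshold: it ended when a single library was dropped, be it B6 2, B6 3 or B6 5, or C3H 1, C3H 3 or C3H 4 (largest edgeR adjusted p = 0.186), while the log2 fold change stayed between -0.53 and -0.41.

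Muc2 (ENSMUSG00000025515), the gel-forming mucin of goblet cells, did not pass the threshold. Its level was 913 CPM in B6 2, 787 in B6 3, 1083 in B6 4 and 950.0 in B6 5. The C3H libraries had 872, 827, 647 and 698 CPM in C3H 1, 3, 4 and 5. C3H 1 and C3H 3 lay above B6 3, so the strains overlapped. The means were 934 ± 122 and 761 ± 106 CPM (SD, n = 4 each), a log2 fold change of -0.29 with a standard error of 0.13 (edgeR adjusted p = 0.151).

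Of the 3 members that passed the filter on low counts, 2 were thus lower in C3H and 0 higher, where 10.1% of all tested genes were lower and 21.4% changed in either direction. With 3 genes that count carries little weight by itself. Both called members did not overlap between strains, as was the case for 24.4% of all tested genes (11.7% with C3H lower).

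**Figure D1:**
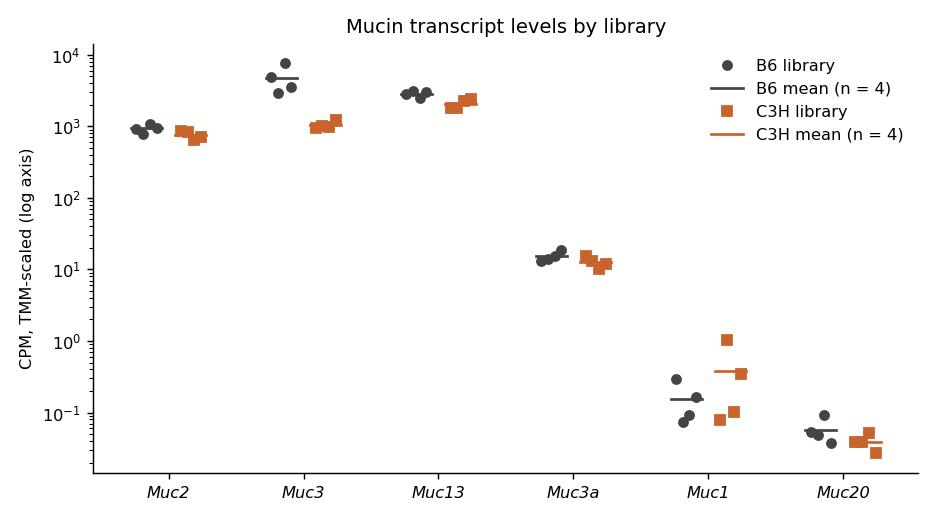
Level of each measured mucin and of the Muc3-like gene Muc3a in each library, as TMM-scaled CPM on a log axis; circles are B6 libraries, squares C3H libraries, and lines the means of 4 libraries. Muc3 separates the strains widely, Muc13 narrowly, and Muc2 overlaps, while Muc1 and Muc20 lie near or below 1 CPM.

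The remaining members were near the detection limit. Muc1 (ENSMUSG00000042784), a membrane mucin of ducts and glands, had 11, 3, 5 and 9 counts in B6 2, 3, 4 and 5, and 4, 53, 4 and 13 counts in C3H 1, 3, 4 and 5. C3H 3 alone held 53 of the 74 C3H counts. The ratio of C3H to B6 was 2.89 with a 95% counting interval of 1.85 to 4.64, which covers counting error only, and 1.14 without C3H 3. Libraries differed in pancreatic acinar transcripts, whose 10 markers (1 of which had counts in C3H 3 and C3H 5 alone) summed to 221, 64.0, 0.314 and 1.10 CPM in B6 2, 3, 4 and 5, and to 0.471, 2752, 47.1 and 1241 CPM in C3H 1, 3, 4 and 5. The library richest in them, C3H 3, was also the one with the most Muc1, and their part in the Muc1 counts was not tested.

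Muc20 (ENSMUSG00000035638), a membrane mucin known from kidney and other epithelia, had 11 counts in B6 and 7 in C3H when libraries were summed, between 1 and 5 in any of the 8. The ratio of C3H to B6 was 0.697 (95% counting interval 0.229 to 1.97), so a strain difference was not detectable at this depth. In GENCODE M21 the Muc20 gene overlaps Muc4 over 4.97 kb on the opposite strand, and the strand setting of the counting is not given in the sources used here, so reads of the 2 genes may not be separable. Muc1 and Muc20 did not pass the filter and were not tested.

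Levels of different genes were compared per kb of exon, with lengths from GENCODE M21, which may differ from the models used for counting. In B6 the order was Muc3 (2445 ± 1053 CPM per kb), Muc13 (935 ± 88.1) and Muc2 (131 ± 17.1), with no overlap between neighbours (SD, n = 4 each). In C3H Muc13 came first (682 ± 98.7 CPM per kb), then Muc3 (533 ± 62.3) and Muc2 (107 ± 14.9). Muc13 and Muc3 overlapped in C3H, with lowest and highest libraries at 594 and 789 for Muc13 and 486 and 624 for Muc3. Muc1 and Muc20 were at 0.0666 and 0.0144 CPM per kb in B6 and 0.165 and 0.00966 in C3H. If the Muc3 exons counted were longer than those of M21, its per kb values are overstated.

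The make-up of the mucin counts differed accordingly. The 5 measured genes took 0.832% ± 0.158 of all counts in B6 and 0.394% ± 0.0125 in C3H (SD, n = 4 each). Muc3 supplied 53.9% ± 11 of them in B6 (42.9% to 67.9%) and 26.7% ± 1.34 in C3H (25.2% to 28.1%). Muc13 supplied 35.0% ± 9.98 in B6 and 53.4% ± 4.18 in C3H. Secreted Muc2 supplied 11.1% ± 1.25 in B6 (9.73% to 12.6%) and 19.9% ± 4.03 in C3H (16.2% to 24.1%), although its own CPM was not higher in C3H. Longer genes take more counts, so these shares are not shares of molecules.

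**Figure D2:**
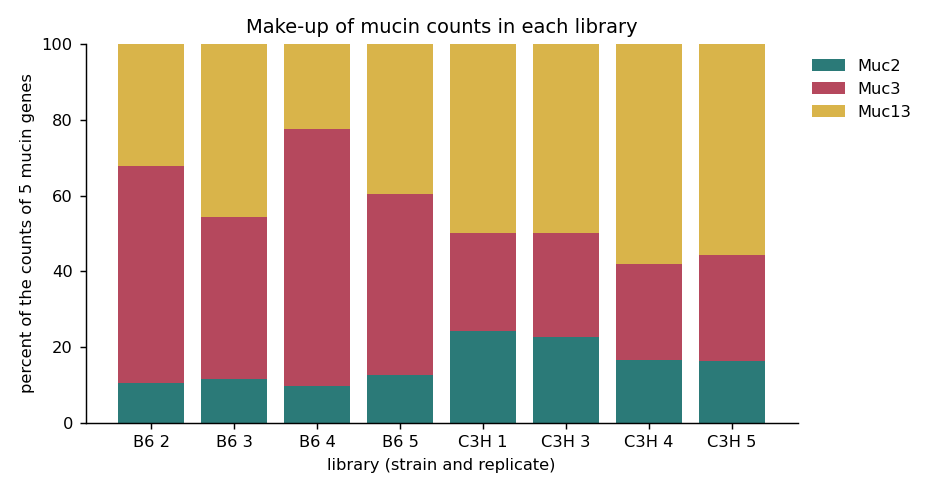
Share of the counts of the 5 measured mucin genes taken by Muc2, Muc3 and Muc13 in each library, in percent (Muc1 and Muc20 are too small to see). The Muc3 part spans 42.9% to 67.9% in B6 and 25.2% to 28.1% in C3H.

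Whether secreted Muc2 and the membrane mucins differed unequally between strains was asked with the log2 ratio of 2 genes within a library. For abundant genes this ratio does not depend on library size. Muc2 over Muc3 was -2.43, -1.89, -2.80 and -1.92 in B6 2, 3, 4 and 5, and -0.11, -0.28, -0.59 and -0.80 in C3H 1, 3, 4 and 5. Every C3H library lay above every B6 library, and the mean rose by 1.82 log2 units (exact permutation test, two-sided, p = 0.0286, the smallest that 70 relabellings allow). Adjusted over the 4 pairs of Muc2 with another measured mucin the exact test gave p = 0.114. A lone pair at the smallest possible p cannot pass when adjusted over 4 pairs. The adjusted value therefore could not decide whether the ratio differed.

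Muc2 over Muc13 averaged -1.61 ± 0.32 in B6 and -1.44 ± 0.40 in C3H (SD, n = 4 each), with overlap (difference 0.17, exact permutation p = 0.571, adjusted 0.762 over the 4 pairs). The ratios of Muc2 to Muc1 and Muc20, which rest on the few counts above, differed by -0.98 and -0.02 (exact permutation p = 0.286 and 0.943, adjusted 0.571 and 0.943). A prior count of 2, scaled to library size, was added to both genes of each pair. Muc20 had 1 to 5 counts per library, so its ratio depends strongly on that prior. Its test therefore could not decide whether the ratio differed. Muc3 over Muc13, a pair added after the data were seen, averaged 0.65 ± 0.73 in B6 and -0.998 ± 0.149 in C3H (SD, n = 4 each), without overlap. The difference was -1.65 (exact permutation p = 0.0286, adjusted 0.0714 over 5 pairs). The levels of both genes were known when the pair was chosen, so its p-value is descriptive only. Its adjusted value cannot be set beside that of Muc2 over Muc3, which was adjusted over 4 pairs.

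**Figure D3:**
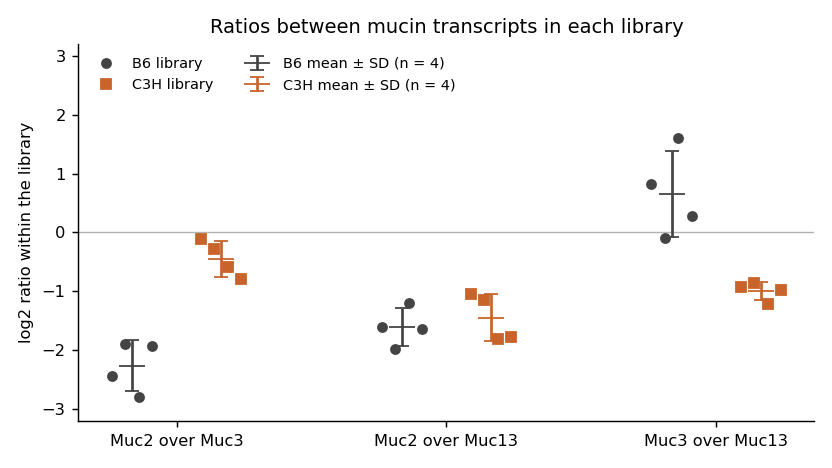
Log2 ratio of 2 mucin transcripts within each library (y axis), by strain; bars give the mean ± SD of 4 libraries. Muc2 over Muc3 and Muc3 over Muc13 separate the strains, with mean differences of 1.82 and -1.65, whereas Muc2 over Muc13 overlaps.

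Muc3 has a neighbour of similar name, Muc3a (ENSMUSG00000094840), a short gene on the same strand. Its level was far lower than that of Muc3, at 13.3, 14, 15.7 and 18.8 CPM in B6 2, 3, 4 and 5 and 15.5, 13.3, 10.1 and 12.0 in C3H 1, 3, 4 and 5. The strains overlapped, and with a log2 fold change of -0.28 and a standard error of 0.14 Muc3a was not called (edgeR adjusted p = 0.213). Of 1894 runs of 50 bases in the M21 transcripts of Muc3, 0 occurred in a transcript of another gene, Muc3a included, and the same count was 0 for Muc2, Muc13, Muc1 and Muc20. The part of Muc3 that only RefSeq has was not examined.

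Genes next to the mucins on their chromosomes were read beside the 21.4% of all tested genes that were called. Among the 5 nearest tested genes on each side of Muc3, 2 of 10 were called: Plod3, a collagen lysyl hydroxylase, was higher in C3H (log2 fold change 0.59) and Ache, acetylcholinesterase, lower (-0.49). The closest on the left, Trim56, had a log2 fold change of -0.11 (edgeR adjusted p = 0.415). Around Muc2 1 of 10 was called (Tspan4, 0.38) and around Muc13 1 of 10 (the unnamed model Gm49594, -2.62). Of the genes near Muc13, the closest on the left, the model Gm15657, did not pass (edgeR adjusted p = 0.182).

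Other mucin genes had low or similar levels in both strains. Of 14 further mucin and mucin-like genes 10 had a row, 4 passed the filter and 0 were called by edgeR, with 0 at an unadjusted p under 0.05 and 0 called by DESeq2 or limma-voom. The most abundant were Cd164, a sialomucin of the endolysosomal and cell surface membrane (147 ± 8.60 CPM in B6, 131 ± 8.73 in C3H; SD, n = 4 each), and the adhesion molecule gene Mcam (14.2 ± 1.44 and 14.7 ± 3.04). Muc16, a membrane mucin of mesothelium, had 69 to 146 counts per library in B6 and 42 to 160 in C3H. Of the gel-forming mucins of airway and stomach, Muc5b had 0 counts in all 8 libraries, and Muc5ac had 11 counts in B6, all in B6 2 and B6 3, and 4 in C3H. Of 10 gastric and Brunner gland markers, which include Muc5ac, 4 were tested and 1 was called, Gkn3 (lower in C3H, edgeR adjusted p = 0.0245). Tff1, Gkn1 and Gkn2 had counts in B6 2 and B6 3 alone (21, 25 and 23 in all). Tff2 had 293 counts in B6 and 416 in C3H, and these followed single libraries more than strain. Its level was 6.91 CPM in B6 2, 0.760 in B6 3, 5.76 in C3H 3 and 2.98 in C3H 5, and at most 0.102 in any other library.

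Genes whose proteins accompany or process mucins included 4 that fell. Of 13 tested genes of this list 4 were lower in C3H and 0 higher (30.8% called, against 21.4% of all tested genes), with a median log2 fold change of -0.15 against 0.03 over all tested genes. Mep1a and Mep1b encode the meprins, brush border metalloproteases, of which meprin beta is known to cleave Muc2 and so detach mucus. Mep1a fell 14.4-fold, from 185 ± 36.3 to 12.8 ± 1.24 CPM (SD, n = 4 each; edgeR adjusted p = 2.39e-08), and its libraries ran from 142 to 229 CPM in B6 and from 11.2 to 13.9 in C3H.

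Mep1b fell 1.58-fold (1459.5 ± 119 to 923 ± 153 CPM, SD, n = 4 each; edgeR adjusted p = 0.00484). Zg16, a goblet cell lectin that binds bacteria in mucus, fell 1.54-fold (3059.5 ± 415 to 1993 ± 391 CPM; edgeR adjusted p = 0.0234), a call that ended when B6 5 or C3H 3 was dropped (largest adjusted p = 0.108). Agr2, the disulphide isomerase needed to fold Muc2, fell 1.32-fold (216 ± 20.9 to 164 ± 23.6 CPM; edgeR adjusted p = 0.0291). Its call ended with library totals as scaling (adjusted p = 0.135) and when B6 2, B6 3, B6 5, C3H 3, C3H 4 or C3H 5 was dropped alone (largest adjusted p = 0.0761).

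Other abundant transcripts of this list did not pass the threshold. Fcgbp, which is linked to Muc2 in the mucus gel, averaged 4703.5 ± 642 CPM in B6 and 4240.5 ± 563 in C3H, and Clca1, a goblet cell metalloprotease that expands mucus, 1748 ± 211 and 1680 ± 369 CPM (SD, n = 4 each). Tff3, the trefoil peptide secreted with Muc2, averaged 777 ± 107 and 627 ± 74.1 CPM (edgeR adjusted p = 0.115). Fcgbp, Clca1 and Tff3 were named after their values were seen.

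Goblet cell fate genes and markers included 3 that fell. Of 15 tested, 3 were lower in C3H and 0 higher (21.4% of all genes were called), with a median log2 fold change of -0.15. Tpsg1, a membrane-anchored tryptase listed as a goblet marker, fell 1.77-fold (14.1 ± 1.03 to 8.00 ± 0.557 CPM, SD, n = 4 each; edgeR adjusted p = 7.96e-05). Gfi1, a transcription factor of the secretory lineage, fell 1.52-fold (edgeR adjusted p = 0.00581). Creb3l1, a membrane-bound transcription factor of secretory cells, fell 1.28-fold (edgeR adjusted p = 0.0384) and was lost with upper-quartile factors or library totals as scaling (adjusted p = 0.0518 and 0.206) and when B6 3, B6 5, C3H 3, C3H 4 or C3H 5 was dropped alone (largest adjusted p = 0.103). The lineage factors Atoh1 (13.3 ± 1.96 and 10.7 ± 1.36 CPM) and Spdef (12.5 ± 1.74 and 11.7 ± 0.794 CPM, SD, n = 4 each) did not pass, and both were named after their values were seen. The summed CPM of the list was 616 to 711 in B6 and 562 to 672 in C3H. Klf4 (mean 294 CPM in B6 and 274 in C3H) and Xbp1 (188 and 168 CPM) took the largest parts of that sum, and neither was called.

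Among enzymes that build the sugar chains of mucins, St3gal4 differed most. Of 23 tested genes 7 were lower and 2 higher in C3H (39.1% called, against 21.4% of all tested genes), with a median log2 fold change of -0.24. St3gal4, which adds terminal sialic acid, ran from 1567 to 1657 CPM in B6 and from 9.59 to 14.1 in C3H (log2 fold change -7.03, edgeR adjusted p = 2.90e-10). St3gal1, which sialylates the core 1 O-glycan, fell 2.23-fold (36.4 ± 5.02 to 16.3 ± 1.70 CPM; edgeR adjusted p = 2.56e-05). B3gnt3, which extends core 1 chains, fell 2.19-fold (271 ± 19.0 to 124 ± 18.9 CPM; edgeR adjusted p = 3.55e-05). B3gnt6, the core 3 synthase, fell 4.77-fold from a low level (1.55 ± 0.643 to 0.324 ± 0.0123 CPM, SD, n = 4 each; edgeR adjusted p = 0.000416). The 2 that rose were B3gnt7, which extends poly-N-acetyllactosamine chains (28.6 to 43.7 CPM; edgeR adjusted p = 0.00458), and Gcnt1, a core 2 enzyme (3.50 to 5.16 CPM; edgeR adjusted p = 0.00317), both named after their values were seen. St6galnac2 matched 2 identifiers and was left out.

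Genes whose proteins bind or shed membrane mucins included 3 that changed. Of 15 tested, 2 were lower and 1 higher in C3H (21.4% of all tested genes were called), with a median log2 fold change of -0.09. Erbb2, the receptor tyrosine kinase that binds Muc4, fell 1.46-fold (144 ± 7.57 to 98.8 ± 6.50 CPM; edgeR adjusted p = 0.000559). Met, the receptor for hepatocyte growth factor and a partner of Muc20, fell 1.30-fold (65.2 ± 5.33 to 50.2 ± 3.76 CPM; edgeR adjusted p = 0.0105). Adam17, a sheddase that releases Muc1, rose 1.22-fold (35.9 ± 3.01 to 43.7 ± 1.47 CPM, SD, n = 4 each; edgeR adjusted p = 0.0265), and its call ended with no filter on low counts (adjusted p = 0.0922) and when B6 3, B6 5, C3H 3 or C3H 4 was dropped alone (largest adjusted p = 0.0769).

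**Figure D4:**
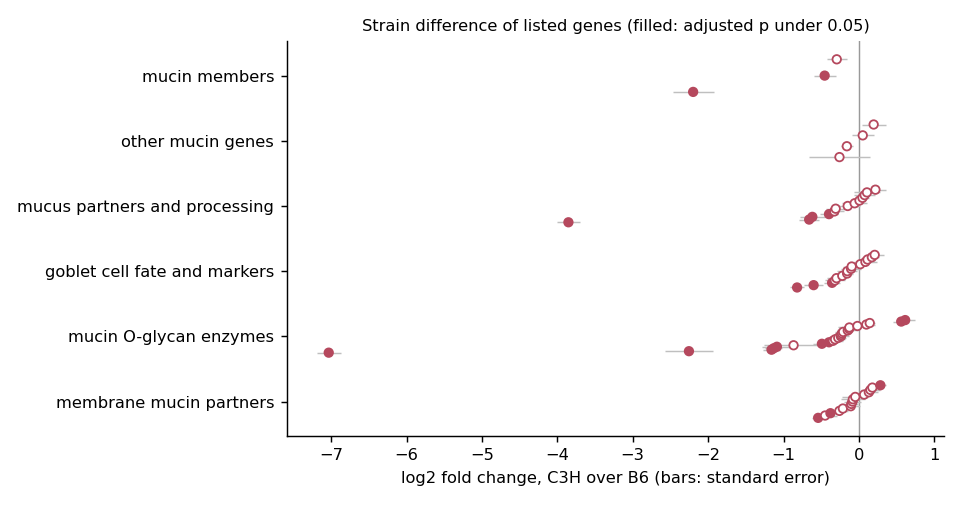
Log2 fold change, C3H over B6, of each tested gene by list (x axis), with its standard error as a bar; filled points have an adjusted p under 0.05 in edgeR. St3gal4 at -7.03, Mep1a at -3.85, B3gnt6 at -2.25 and Muc3 at -2.20 lie farthest from 0.

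Markers of other cell types were read beside the mucins. Enterocytes, the main source of Muc3 and Muc13, had 10 of 10 markers tested and 0 called by edgeR (0 at an unadjusted p under 0.05, 1 by DESeq2, 0 by limma-voom). Their summed CPM was 65475 to 81523 in B6 and 58469 to 92205 in C3H, so the strains overlapped. Apoa4 took the largest part of that sum (mean 23302 CPM in B6 and 25360 in C3H). Against 21.4% of all tested genes, tuft cell markers were called in 6 of 6, all lower in C3H (summed 47 to 58.2 CPM in B6 and 21.7 to 24 in C3H). Of 6 immune cell markers 3 were lower (1351 to 1604 and 954 to 1208 CPM summed). Jchain took the largest part of the immune sum (mean 1194 CPM in B6 and 858 in C3H). The 3 immune markers not called were Lyz2, Itgax and Cd79a, at log2 fold changes of 0.12, 0.22 and -0.43. Of 6 Paneth cell markers 1 was lower and 1 higher, the latter Pla2g2a, a secreted phospholipase (5.34 CPM in B6 and 678 in C3H). Of 6 M cell markers 2 were lower (48.9 to 70.2 CPM summed in B6 and 49.3 to 103 in C3H), and of 6 mesothelial markers 2 were lower (20.6 to 31.3 and 13.5 to 27 CPM). The M cell sum of 103 CPM was that of C3H 3, where Gp2 alone had 55.8 CPM. Gp2 had 0.844, 2.20 and 23.0 CPM in C3H 1, 4 and 5, so it was highest in C3H 3 and C3H 5, the libraries with the most pancreatic transcripts. Of 6 stem and proliferation markers 0 were called by edgeR (1 at an unadjusted p under 0.05, 1 by DESeq2 and 1 by limma-voom).

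Of 6 proximal small intestine genes 3 were higher in C3H, and of 5 tested distal ones 2 were higher, where 11.3% of all tested genes were higher. In each of these lists 3 genes were not called. Fabp6, the ileal bile acid binding protein, had 2 counts in B6 and 20 in C3H. The part of enterocyte, tuft, immune, Paneth, M cell, mesothelial and position genes in the mucin differences was not tested. Without the 4 libraries richest in pancreatic transcripts (B6 2, B6 3, C3H 3 and C3H 5) Muc3 was lower by a log2 fold change of -2.54 (edgeR adjusted p = 0.00241), and Muc13 was not called (-0.44, edgeR adjusted p = 0.446). With the 2 libraries per strain that then remain, 1675 of 18560 tested genes were called. Of the lists, 1 of 13 mucus partners, 1 of 15 goblet genes, 5 of 23 O-glycan enzymes and 1 of 15 membrane mucin partners were called.

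Genes with the pattern most like each abundant mucin over the 8 libraries were found by the root mean square difference of centred log2 CPM among 10004 other named genes of at least 5 CPM. For Muc3 the nearest were Tom1, Tyro3 and Abcc6, at 0.33, 0.34 and 0.35 log2 units. For Muc13 they were Misp, Prdx5 and Bak1, at 0.05, 0.07 and 0.07, and for Muc2 Vamp4, C2cd3 and Nsmaf, at 0.08, 0.10 and 0.10. Misp, which encodes an actin-bundling protein, averaged 400 CPM in B6 and 298 in C3H. The difference is not scaled to a gene's own spread, which was widest for Muc3, so distances cannot be compared between the mucins. These ranks share library depth and scaling and carry no test.

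**Figure D5:**
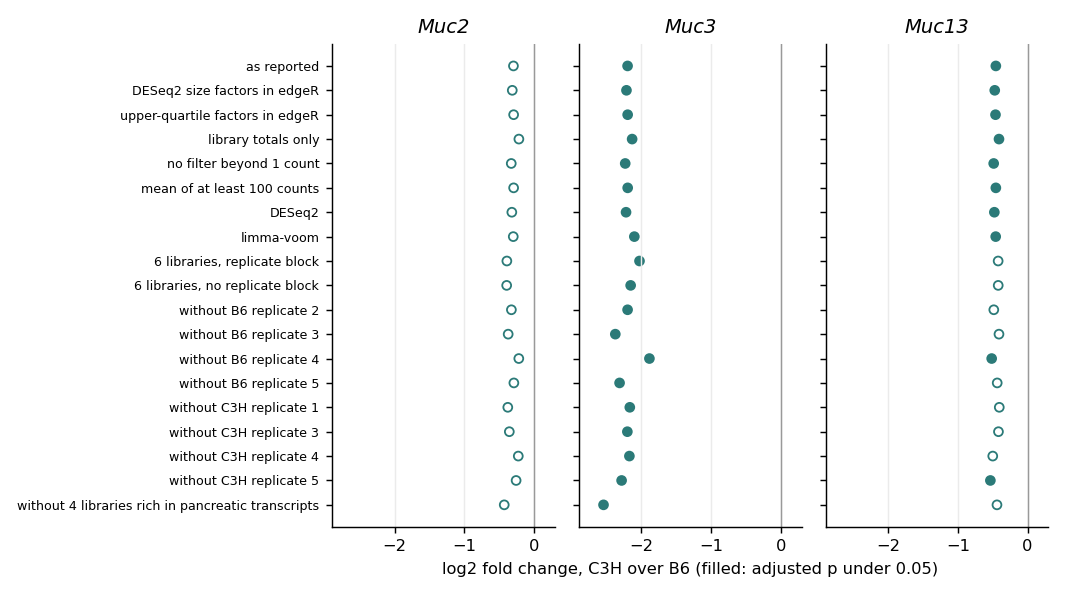
Log2 fold change, C3H over B6, of Muc2, Muc3 and Muc13 under each way of processing the counts (rows); filled points have an adjusted p under 0.05. Muc3 stays filled in every row, between -2.54 and -1.89, Muc2 is unfilled throughout, and Muc13 is filled in some rows only.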

How the data were processed

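Bulk RNA-seq of jejunum was analysed in 8 libraries, 4 per strain. Per the labels, 200 ng of RNA went into a stranded mRNA library kit. The submitters' processing notes list STAR 2.7.9a, HTSeq 2.0.2 and GRCm39; annotation release and strand setting: not given in the sources used here. The deposited table holds raw counts per Ensembl gene. Symbols and exon lengths came from GENCODE M21 (GRCm38; 51948 of 56941 identifiers matched), and promoters from RefSeq GRCm38.p6.

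Counts were fitted in edgeR 4.0.16 (R 4.3.3) with TMM scaling, filterByExpr (minimum count 10), the quasi-likelihood test and Benjamini-Hochberg adjustment over all 18025 genes tested, with a threshold of 0.05; standard errors were back-calculated from the F statistic. Ratios took CPM on a log2 scale (prior count 2); p-values were adjusted over the 4 pairs with a measured partner, not the 6 planned. The labels do not state that replicate numbers shared by both strains (3, 4 and 5) pair libraries, and the main fit used no pairing. Deviations of same-numbered libraries correlated at 0.00576, 0.18 and -0.0517, and those of differently numbered ones at -0.245 to 0.0831. These few correlations cannot exclude a pairing. Chi-square over degrees of freedom between libraries of 1 strain was 21.2 or more, so none was a copy of another.

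Named genes were all members, up to 4 called genes per mucin or mucus list with the smallest adjusted p (the 2 most abundant where none was called) and the 3 most alike to Muc2, Muc3 and Muc13; neighbours, Muc3a and other genes were named after their values were seen. The members and lists were chosen with earlier results of these data known. Alternatives were other scalings and filters, DESeq2 1.42.0, limma-voom (limma 3.58.1), a replicate block, each library left out, and 4 libraries left out.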

Additional observations from a re-analysis of the deposited data

How the results depend on the processing

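Muc3 was lower in C3H past the threshold under all 18 alternatives, and Muc2 missed it under all 18 with a log2 fold change below 0. Muc13 kept its direction, but its log2 fold change of -0.46 missed the threshold at -0.44 without the 4 libraries rich in pancreatic transcripts (adjusted p = 0.446) and, using just the 6 libraries whose replicate numbers both strains have, at -0.42 with the replicate block (adjusted p = 0.195) and -0.42 with no replicate block (adjusted p = 0.0969). In all 3 of these fits the count of called mucins was 1, against 2. The block moved the count of called genes from 3212 to 2919. Only number 4 had a correlation over 0.1 between the strains, and the labels state no pairing of libraries by number. With 1 library left out at a time, 1 to 2 mucins were called, 3099 to 3682 of all genes, 2 to 5 mucus partners, 2 to 4 goblet genes, 8 to 10 O-glycan enzymes and 2 to 4 membrane mucin partners; the log2 fold change ran from -2.38 to -1.89 for Muc3, from -0.53 to -0.41 for Muc13 and from -0.38 to -0.22 for Muc2. Adam17 had an adjusted p of 0.0548 with the block and 0.0413 with no replicate block in those 6 libraries. Mcam, at 0.0501 with all libraries, ran from -0.0797 (without C3H 3) to 0.169. Without the 4 pancreas-rich libraries, 1675 of 18560 tested genes were called, with 1 of 13 mucus partners, 1 of 15 goblet genes, 5 of 23 O-glycan enzymes and 1 of 15 membrane mucin partners. Only 2 libraries per strain remain there. For the ratio of Muc2 to Muc3 the strain difference was 1.64 to 1.94 with 1 library left out, and for Muc3 to Muc13 -1.90 to -1.33. Muc2 to Muc13 was 0.03 to 0.30 and turned to -0.0012 without the 4 libraries. Muc2 to Muc1 was -1.47 to -0.40 (-0.0902 without the 4 libraries), and Muc2 to Muc20 -0.0921 to 0.126, also 0.13 with a prior count of 0.5. Depth limits Muc1 and Muc20 alone among the members; the cause of each change was not tested. Over the 16 genes named from the lists, 257 of 287 refits kept direction and side of the threshold, 29 lost the call and 1 turned.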
